A study of Mus musculus with 2 samples.

Results

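The data describe 10 genes whose products break down the branched-chain amino acids leucine, isoleucine and valine, out of 31053 genes in the count tables. They are Bcat2, Bckdha, Bckdhb, Bckdk, Dbt, Dld, Acadsb, Mccc1, Mccc2 and Pccb, a list given by name and chosen with earlier results of these data known. All 10 had counts in adipocyte-like nuclei of both libraries and passed the minimum of 50 counts over the pair, so none was left out there.

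The data are single-nucleus RNA sequencing of inguinal white adipose tissue (iWAT), a fat depot under the skin, from male C57BL/6 mice fed Western diet. The methods of the study describe the tissue as taken without the lymph node. The library labelled WT came from mice with the floxed Lexis allele and no Cre, and the library labelled KO from mice in which Adipoq-Cre removes Lexis, a long noncoding RNA, in adipocytes. Adipoq-Cre is used to delete genes in fat cells, and whether it acted in other classes was not checked here. The tissue of 3 mice was pooled for each library, so there was 1 library per genotype, no spread between mice could be measured and no test was possible. The floxed allele and the diet are shared by both libraries. An age for these particular mice is not given in the sources used here.

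Every interval below is an exact 95% interval that covers counting error only, so 2 values whose intervals lie apart differ between these libraries, not necessarily between genotypes. The names of the deposited tables carry the opposite genotype to the sample labels, Lexis itself was not analysed here, and the labels could not be checked on the deleted gene. Groups follow the labels, and each library is called by its label throughout.

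Branched-chain amino acids are first stripped of their amino group by a transaminase in mitochondria, a reversible step. The branched-chain ketoacid dehydrogenase complex then commits the carbon skeletons to oxidation, and a kinase switches this complex off by phosphorylation. Later enzymes of each branch deliver acetyl-CoA, acetoacetate or propionyl-CoA. White fat is known to take up and oxidise these amino acids, and they feed fatty acid synthesis as adipocytes differentiate.

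After filters of at least 500 genes and at most 5% mitochondrial counts, and after doublet removal, 3503 nuclei labelled WT and 2852 labelled KO were kept. Their median depth was 1195 and 3879 unique molecular identifiers (UMIs, 1 for each captured molecule). Nuclei were clustered without these 10 genes and the related lists and named from marker genes. This gave 418 and 894 adipocyte-like nuclei, 298 and 787 adipocyte stem and progenitor-like (ASPC-like) nuclei, 331 and 812 myeloid-like nuclei, 2100 and 105 lymphocyte-like nuclei and 95 and 122 endothelial-like nuclei in the libraries labelled WT and KO. The adipocyte-like nuclei of the library labelled KO lay in 1 cluster with the exception of 5 nuclei, and all those of the library labelled WT lay in another, so class and library were not mixed within clusters. ASPC-like, myeloid-like and lymphocyte-like nuclei were largely split by library as well, while all endothelial-like nuclei of both libraries lay in 1 cluster. ASPC-like nuclei labelled WT lay mostly in 1 cluster led by Adm and Lox (293 of 298), and those labelled KO in a cluster with Gdf10 and Gria4 (385) and another with Sema3e and Dact2 (373). Myeloid-like nuclei labelled WT lay mostly in a cluster led by Timd4 (311 of 331), and those labelled KO in a cluster with Vsig4 (546) and another led by Dcstamp (247). Most lymphocyte-like nuclei labelled KO (58 and 31 of 105) lay in clusters that held 1 and 0 nuclei labelled WT. Lymphocyte-like nuclei made up 2100 of the 3503 kept nuclei labelled WT, and whether lymph node remained in that tissue was not tested. Values compared between the libraries within these 3 classes and in adipocyte-like nuclei therefore come mostly from different clusters. All 12 adipocyte markers were detected in both sets, with summed levels of 28328 and 31269 CPM, which scales summed UMIs to the same total for each class and library. Median depth in adipocyte-like nuclei was 3652 and 7849 UMIs, and 12 barcodes were shared by both tables of 5000.

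The sequences upstream of 3 of the genes are shown because these 3 were past 2-fold between the libraries as measured, although Bckdk was not under TMM scaling or after a correction for intronic length. Each run is the 250 bases before a listed RefSeq start of the gene in GRCm38.p6, read 5′ to 3′ on the strand of the gene. For Bckdhb this start lies within the gene span given below, chr9:83925111-84124240, so the last bases of its run are inside that span. Capitals mark 4 motifs searched on both strands: the GC box GGGCGG, the CCAAT box CCAAT, the E-box CACGTG and the TATA box TATAAA.
Bckdhb, chr9:83924887-83925136, plus strand: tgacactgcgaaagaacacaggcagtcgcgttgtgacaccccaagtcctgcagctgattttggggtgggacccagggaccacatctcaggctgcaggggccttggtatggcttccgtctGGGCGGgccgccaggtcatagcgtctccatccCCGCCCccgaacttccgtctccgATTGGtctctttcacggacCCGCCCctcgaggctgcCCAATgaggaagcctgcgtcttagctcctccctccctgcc
Mccc2, chr13:100015640-100015889, minus strand: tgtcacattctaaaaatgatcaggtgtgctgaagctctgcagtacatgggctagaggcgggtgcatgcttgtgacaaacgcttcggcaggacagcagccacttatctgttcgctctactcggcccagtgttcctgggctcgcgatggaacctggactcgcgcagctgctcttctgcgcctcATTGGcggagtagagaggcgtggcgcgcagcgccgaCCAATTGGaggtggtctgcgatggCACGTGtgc
Bckdk, chr7:127903823-127904072, plus strand: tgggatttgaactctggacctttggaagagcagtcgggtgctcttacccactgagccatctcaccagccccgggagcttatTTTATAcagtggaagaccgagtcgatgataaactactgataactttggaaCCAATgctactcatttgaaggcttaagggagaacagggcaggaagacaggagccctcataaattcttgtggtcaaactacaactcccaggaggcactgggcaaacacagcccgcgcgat
The Bckdhb run held 3 GC boxes and 2 CCAAT boxes with no overlap, and 63.2% of its bases were G or C. The Mccc2 run held 3 CCAAT boxes, 2 of them overlapping by their shared bases, and 1 E-box, with 58.8% G or C. The Bckdk run held 1 TATA box and 1 CCAAT box. The median share of G or C over all 32851 starts was 52.4%. Of all starts, 32.7% held a GC box, 33.8% a CCAAT box, 6.02% an E-box and 12.4% a TATA box within the same length. Among the 11 starts listed for the 9 members that matched the RefSeq table, 5 held a CCAAT box, 3 a GC box, 1 an E-box and 1 a TATA box. A second start of Bckdhb held none of the 4 motifs. Such matches are letters in a window and not evidence of binding.

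The summed level of the 10 genes in adipocyte-like nuclei was 465 CPM (435 to 496, 908 UMIs) in the library labelled WT and 1166 CPM (1144 to 1189, 10080 UMIs) in the library labelled KO. One gene carried much of this: Bckdhb held 28.0% (25.1 to 31.0) of the summed UMIs in the library labelled WT and 55.2% (54.3 to 56.2) in the library labelled KO. Without Bckdhb the sums were 335 and 522 CPM.

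**Figure D1:**
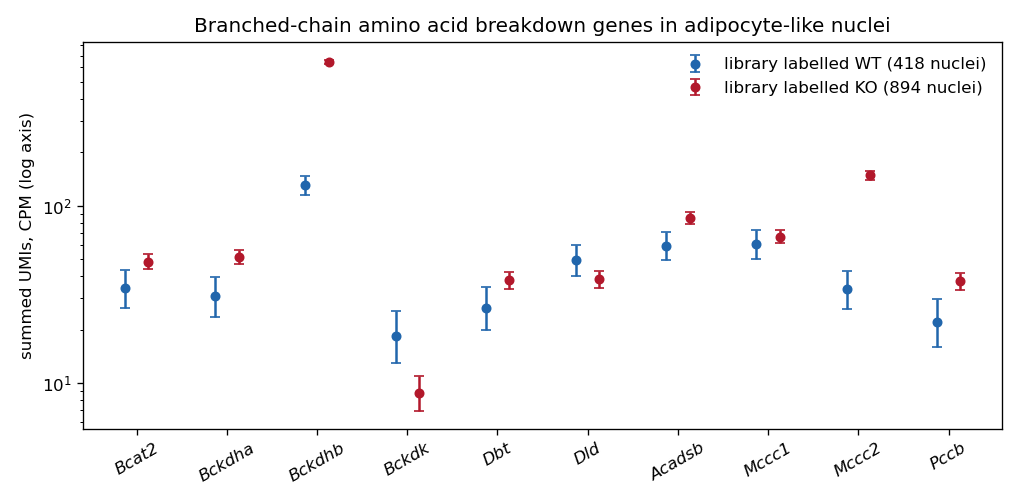
Level of each of the 10 genes in adipocyte-like nuclei, as CPM of summed UMIs on a log axis. Points are the library labelled WT (blue, 418 nuclei) and the library labelled KO (red, 894 nuclei), and bars are exact 95% Poisson intervals of counting error. Bckdhb and Mccc2 stand furthest apart between the libraries, and Bckdk is the member with the lower level in the library labelled KO by the largest factor.

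Bcat2 (ENSMUSG00000030826), the mitochondrial transaminase of the first step, lies at chr7:45568967-45589710. It measured 34.3 CPM (26.6 to 43.6, 67 UMIs) in adipocyte-like nuclei labelled WT and 48.1 CPM (43.6 to 53.0, 416 UMIs) in those labelled KO. The intervals of both levels lie just apart and the ratio was 1.40 (1.08 to 1.84), under the 2-fold size used here to call a difference. Bcat2 overlaps the annotated gene 0610005C13Rik, and reads of overlapping genes may not be told apart.

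The dehydrogenase complex has 3 catalytic parts. Bckdha and Bckdhb encode the alpha and beta chains of its E1 decarboxylase, Dbt the E2 core that carries the acyl group, and Dld the E3 subunit, which the pyruvate and 2-oxoglutarate dehydrogenases also use. Bckdha (ENSMUSG00000060376), at chr7:25629852-25658782, measured 30.7 CPM (23.4 to 39.5, 60 UMIs) labelled WT and 51.4 CPM (46.7 to 56.4, 444 UMIs) labelled KO, a ratio of 1.67 (1.27 to 2.23), which TMM scaling raised to a log2 ratio of 1.04. Its partner chain had a higher measured ratio.

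Bckdhb (ENSMUSG00000032263) lies at chr9:83925111-84124240, the longest of the 10 genes, and overlaps the annotated genes Gm29163 and Gm46124. It measured 130 CPM (115 to 147, 254 UMIs) in the library labelled WT and 644 CPM (627 to 661, 5567 UMIs) in the library labelled KO. The ratio was 4.95 (4.37 to 5.64), so the measured ratios of the alpha and beta chains were unequal before any correction for gene length. A Bckdhb UMI was present in 39.2% (34.5 to 44.1) of adipocyte-like nuclei labelled WT and 91.1% (89.0 to 92.8) of those labelled KO, at the unequal depths given above. The 3 nuclei with the most Bckdhb UMIs held 6.30% and 3.75% of the total, so no few nuclei made up the level in either library.

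Dbt (ENSMUSG00000000340), at chr3:116513070-116549981, measured 26.6 CPM (19.9 to 34.9, 52 UMIs) and 38.0 CPM (34.0 to 42.3, 328 UMIs), a ratio of 1.43 (1.06 to 1.95). It overlaps Gm4596. Dld (ENSMUSG00000020664), at chr12:31331562-31351471, went the other way, with 49.2 CPM (39.8 to 60.0, 96 UMIs) labelled WT and 38.5 CPM (34.5 to 42.9, 333 UMIs) labelled KO. The Dld ratio was 0.78 (0.62 to 0.99) as measured. Its log2 ratio was near even under TMM scaling, at -0.06, and beside genes of like intronic length, at -0.09 (-0.42 to 0.25). The shared E3 subunit was therefore not among the genes with higher levels in the library labelled KO.

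Bckdk (ENSMUSG00000030802), the kinase that inactivates the complex, lies at chr7:127904073-127909664 and is the shortest of the 10 genes. It measured 18.4 CPM (12.9 to 25.5, 36 UMIs) in the library labelled WT and 8.79 CPM (6.93 to 11.0, 76 UMIs) in the library labelled KO, a ratio of 0.48 (0.32 to 0.73). It was the only one of the 10 at or under a ratio of 0.5. The call did not hold under a trimmed-mean (TMM) scaling, where its log2 ratio was -0.77, nor after the correction for intronic length described below.

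Beyond the complex, Acadsb (ENSMUSG00000030861), the short and branched chain acyl-CoA dehydrogenase of the isoleucine branch, lies at chr7:131410601-131446211. It measured 59.4 CPM (49.1 to 71.2, 116 UMIs) labelled WT and 85.2 CPM (79.1 to 91.5, 736 UMIs) labelled KO, a ratio of 1.43 (1.18 to 1.76). Pccb (ENSMUSG00000032527), the beta chain of propionyl-CoA carboxylase, at chr9:100982032-101034940, measured 22.0 CPM (15.9 to 29.7, 43 UMIs) and 37.5 CPM (33.5 to 41.8, 324 UMIs), a ratio of 1.70 (1.24 to 2.40). Both were higher in the library labelled KO by less than the 2-fold size, though under TMM scaling the log2 ratio of Pccb was 1.06.

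Mccc1 and Mccc2 encode the alpha and beta chains of 3-methylcrotonyl-CoA carboxylase, an enzyme of leucine breakdown. Mccc1 (ENSMUSG00000027709), at chr3:35956292-36000694 and overlapping Mccc1os, measured 60.4 CPM (50.01 to 72.4, 118 UMIs) and 66.9 CPM (61.5 to 72.6, 578 UMIs). Its ratio of 1.11 (0.91 to 1.36) had an interval that includes 1, and its log2 ratio changed sign, to -0.11, when mitochondrial genes and Malat1 were left out of the totals. Mccc2 (ENSMUSG00000021646), at chr13:99948532-100015639, measured 33.8 CPM (26.1 to 43.0, 66 UMIs) and 148 CPM (140 to 156, 1278 UMIs). The Mccc2 ratio was 4.38 (3.42 to 5.69). As measured, the beta chain differed by more than the alpha chain in this enzyme and in E1. Propionyl-CoA carboxylase went the other way, since its alpha chain Pcca, described below, had a higher measured ratio than Pccb. Beside genes of like intronic length, the log2 intervals of Bckdha (0.27 to 1.07) and Bckdhb (0.94 to 1.31) overlap, while those of Mccc1 (-0.23 to 0.36) and Mccc2 (1.32 to 2.06) lie apart.

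Of the 10 genes, 2 were at or above a ratio of 2 between the libraries in adipocyte-like nuclei and 1 was at or under 0.5. Over all 11351 genes with at least 50 counts, 25.9% were at or above 2 and 17.6% at or under 0.5, so these counts are near the background. Under TMM scaling 4 members (Bckdhb, Mccc2, Pccb and Bckdha) were at or above 2 and 0 at or under 0.5, with backgrounds of 31.3% and 9.73%. The median log2 ratio of the members was 0.52, beside -0.05 over all genes. Above a ratio of 1 lay 8 of 10, all but Bckdk and Dld, with a background of 49.7%. Scaling by TMM raised all log2 ratios in this class by 0.30, and totals without mitochondrial genes and Malat1, which held 33.3% of counts labelled WT and 20.6% labelled KO, lowered them by 0.25. Of the genes past 2-fold, 59.5% were higher in the library labelled KO, 76.3% under TMM and 45.4% under those totals. Ranked among the 11351 genes, 10.8% had a higher ratio than Bckdhb and 11.8% a higher ratio than Mccc2, while 84.4% had a higher ratio than Bckdk.

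**Figure D2:**
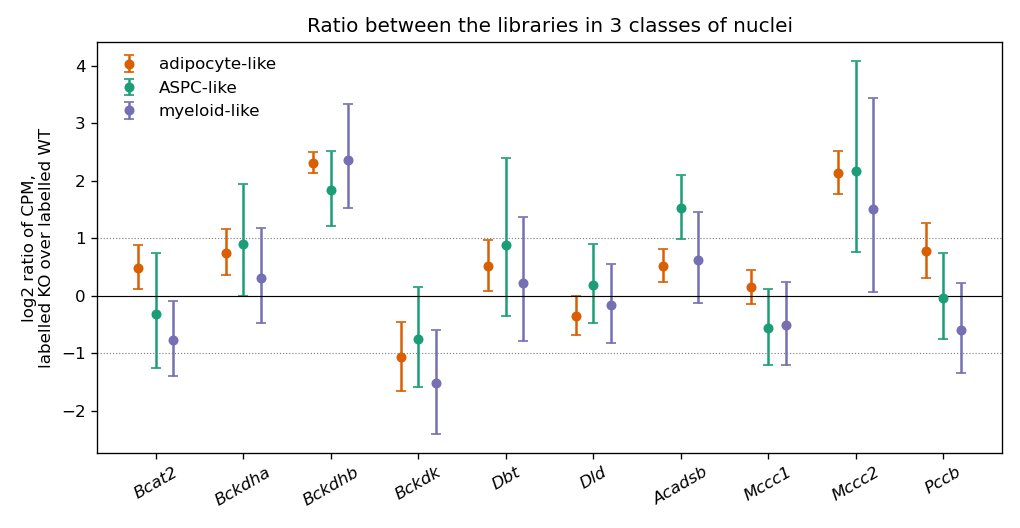
Log2 ratio of CPM, labelled KO over labelled WT, for each gene in adipocyte-like (orange), ASPC-like (green) and myeloid-like (violet) nuclei. Bars are exact 95% intervals of counting error and dotted lines mark a 2-fold ratio. Bckdhb lies above the upper dotted line in all 3 classes, and Bckdk lies below 0 in all 3.

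The ratio between the libraries moved with the length of the introns. Nuclear RNA holds unspliced transcripts, and whether intronic reads were counted is not stated. From the shortest to the longest, Bckdk has 2520 intronic bases and a log2 ratio of -1.07, Bcat2 15659 bases and 0.49, Dld 17633 bases and -0.35, and Bckdha 27137 bases and 0.74. Mccc1 has 30925 bases and a log2 ratio of 0.15, Acadsb 31137 bases and 0.52, Dbt 33611 bases and 0.51, Pccb 50096 bases and 0.77. Mccc2 has 64904 bases and 2.13, and Bckdhb 197603 bases and 2.31. The 2 longest members thus had the 2 highest ratios and the shortest had the lowest. Across these 10 genes Spearman's rho between intronic length and log2 ratio was 0.87 in adipocyte-like and 0.72 in ASPC-like nuclei, and over 9 of them 0.63 in myeloid-like and 0.23 in lymphocyte-like nuclei, given as a description of genes that share their libraries.

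The same slope appeared across all genes. In 20 bins of intronic length, the median log2 ratio in adipocyte-like nuclei ran from -0.91 in the shortest bin to 2.00 in the longest. Set against genes of like intronic length, Bckdhb was 2.18-fold and Mccc2 3.20-fold higher in the library labelled KO, and Bckdk 0.76-fold. Bckdhb lies near the upper edge of its bin (124101 to 203384 intronic bases), whose median log2 ratio was 1.19. The median of the next bin was 2.00, so the corrected value of Bckdhb and its 2-fold call depend on the bin edges. By this measure Mccc2 and not Bckdhb differed most. The other 7 lay between 0.94-fold (Dld) and 1.68-fold (Bcat2). After the correction 2 of 10 were at or above 2, with a background of 19.4%, none was at or under 0.5, with a background of 11.7%, and the members' median log2 ratio was 0.43. The part of intron length, depth or library preparation in the uncorrected ratios was not tested.

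**Figure D3:**
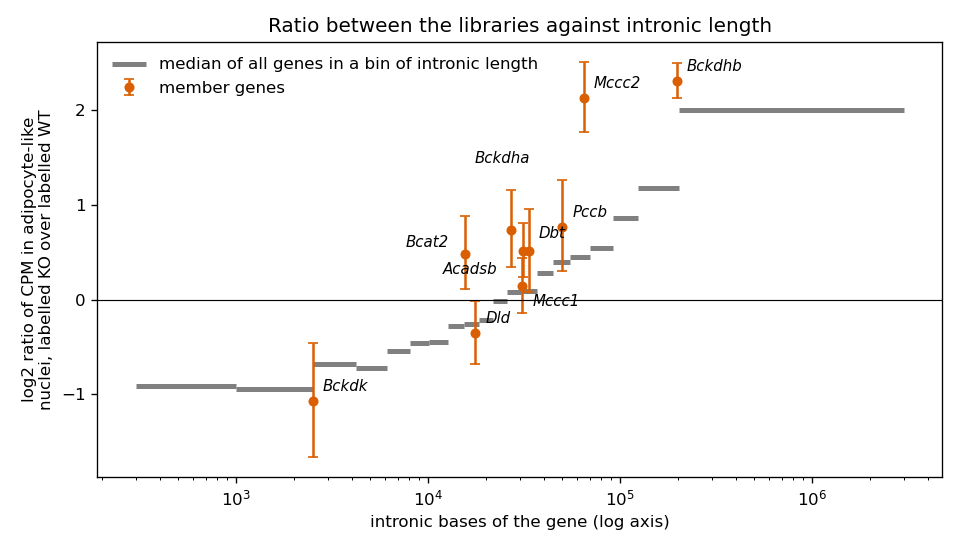
Log2 ratio of CPM in adipocyte-like nuclei, labelled KO over labelled WT, against the intronic bases of each gene on a log axis. Orange points are the 10 genes with exact 95% intervals, and grey lines are the medians of all genes in 20 bins of intronic length. The grey medians climb from -0.91 to 2.00, and of the members Mccc2 and Bckdhb lie furthest above them.

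Levels of different genes were also set per length, and the order depends on which length is used. With 3′ chemistry a UMI stands for 1 captured molecule, so counts need not scale with either length. The orders below are therefore a description only. Per kilobase of gene span, Bckdk was highest in the library labelled WT, at 3.30 CPM, followed by Dld at 2.47 CPM, while Bckdhb stood at 0.65 CPM, Mccc2 at 0.50 CPM and Pccb at 0.42 CPM. The intervals of Bckdk (2.31 to 4.56) and Dld (2.00 to 3.01) overlap, as do those of Bckdhb (0.58 to 0.74) and Dbt (0.54 to 0.95) and those of Mccc2 (0.39 to 0.64) and Pccb (0.30 to 0.56), so these neighbours cannot be ordered. Labelled KO, Bckdhb was highest per kilobase of span, at 3.23 CPM (3.15 to 3.32), and Pccb was lowest, at 0.71 CPM (0.63 to 0.79). Per kilobase of exon, Bckdhb was highest in both libraries, at 87.5 CPM (77.0 to 98.9) and 433 CPM (422 to 445).

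Because depth differed between the libraries, detection was also compared at an equal draw of 1000 UMIs from each nucleus, as the expected number of nuclei holding at least 1 UMI. At this draw 36.3% (31.6 to 41.1) of 408 adipocyte-like nuclei labelled WT and 65.8% (62.6 to 68.9) of 889 labelled KO held a UMI of any of the 10 genes, with 10 and 5 shallower nuclei left out. The difference was 29.5 percentage points (23.7 to 35.1). Undrawn, the shares were 75.1% and 98.0%. Without Bckdhb the difference at 1000 UMIs was 12.7 points (7.04 to 18.1).

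Bckdhb alone was expected in 11.8% of nuclei labelled WT and 43.1% of those labelled KO, a difference of 31.3 points (26.5 to 35.8). Mccc2 differed by 9.17 points (6.08 to 12.0) and Bckdha by 2.61 points (0.19 to 4.70). For the other 7 genes the interval of the difference includes 0, from -0.95 points (-2.89 to 0.48) for Bckdk to 2.46 points (-0.73 to 5.31) for Acadsb. In lymphocyte-like nuclei, which are not known for this pathway, 22.3% (19.9 to 24.9) labelled WT and 18.9% (11.4 to 28.5) labelled KO held a UMI of any member at the same draw, which left out 1020 and 15 shallower nuclei, with median undrawn depths of 1010 and 2019 UMIs. In single nuclei the median number of the 10 genes detected without a draw was 1 in adipocyte-like nuclei labelled WT and 4 in those labelled KO. At least 5 of the genes were detected in 6.22% and 37.0% of nuclei.

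Within each library, the members were compared between adipocyte-like nuclei and all other kept nuclei, which came from the same preparation. Adipocyte-like nuclei were the deeper ones, with median depths of 3652 (labelled WT) and 7849 (labelled KO) UMIs against 1010 to 1714 and 2019 to 3499 UMIs in lymphocyte-like, myeloid-like and ASPC-like nuclei. Summed, they were 1.90-fold (1.74 to 2.08) higher in adipocyte-like nuclei labelled WT and 3.24-fold (3.105 to 3.39) higher in those labelled KO. In the library labelled WT, 3 of 10 reached a ratio of 2 (Bckdhb, Mccc2 and Acadsb), with a background of 9.94%, and 8 of 10 lay above 1, with a background of 28.5%. In the library labelled KO, 5 of 10 reached 2 (Bckdhb, Mccc2, Mccc1, Bcat2 and Dbt), with a background of 13.6%, and 9 of 10 lay above 1, with a background of 34.4%. Across the alternatives tried, the log2 ratios of Bckdha, Dbt and Mccc1 labelled WT rose to as much as 1.02, 1.03 and 1.42. Those of Bckdha and Pccb labelled KO rose to as much as 1.19 and 1.08, so more members reached 2 under some alternatives. The members' median log2 ratio was 0.51 and 1.01, beside -0.54 and -0.39 over all genes, so the list lay above the bulk of genes in both libraries. So did the related lists described below. Their medians were 0.72 and 0.64 for other pathway genes and 1.00 and 0.80 for fatty acid oxidation genes. They were 0.39 and 0.15 for partner complexes and 0.07 and -0.12 for TCA cycle genes.

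**Figure D4:**
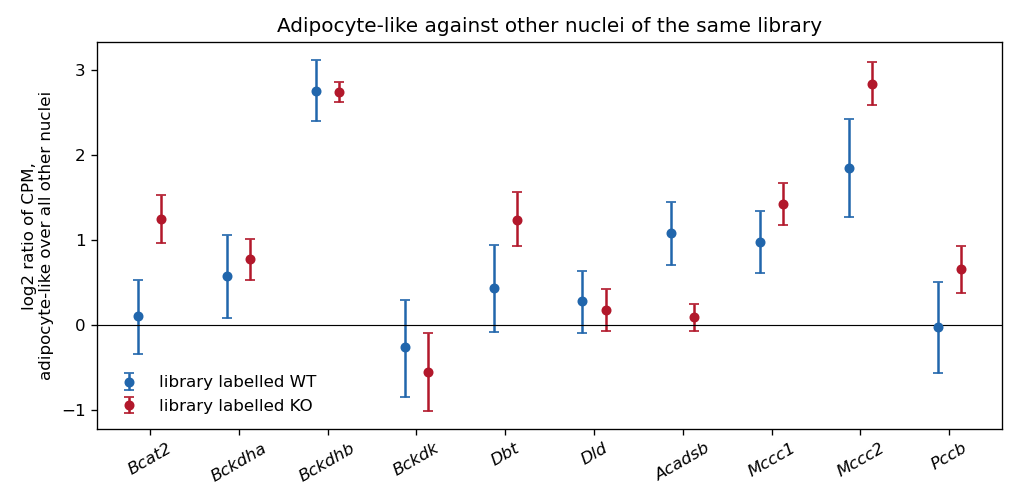
Log2 ratio of CPM in adipocyte-like nuclei over all other nuclei of the same library, for the library labelled WT (blue) and the library labelled KO (red), with exact 95% intervals. Bckdhb and Mccc2 are highest in both libraries, and Bckdk is below 0 in both, in the library labelled WT only with the scaling shown.

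Bckdhb had the highest ratio of the 10 in the library labelled WT, at 6.74-fold (5.28 to 8.67) over other nuclei, and nearly the same factor in the library labelled KO, 6.68-fold (6.16 to 7.24). Mccc2 was 3.58-fold (2.41 to 5.37) and 7.11-fold (5.99 to 8.51) higher in adipocyte-like nuclei. Mccc1 was 1.97-fold (1.53 to 2.53) and 2.68-fold (2.26 to 3.19) higher. These 3 genes were higher in adipocyte-like nuclei with intervals clear of 1 in both libraries, as was Bckdha at 1.49-fold (1.06 to 2.08) and 1.71-fold (1.44 to 2.02).

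Of the others, Dbt was at 1.35 (0.94 to 1.92) in the library labelled WT and 2.36-fold (1.90 to 2.96) higher in adipocyte-like nuclei labelled KO. With a filter of at least 1000 genes, the log2 ratio of Dbt labelled WT was 1.03 (0.35 to 1.73), past the 2-fold size. Acadsb was 2.12-fold (1.63 to 2.74) higher labelled WT and even labelled KO, at 1.06 (0.95 to 1.19). Bckdk was at 0.83 (0.55 to 1.23) and 0.68 (0.50 to 0.94) of its level in other nuclei, although the first of these was above 1 under TMM and under totals without mitochondrial genes and Malat1. Dld was near even, at 1.21 (0.94 to 1.56) and 1.13 (0.95 to 1.34). Bcat2 was even in the library labelled WT at 1.07 (0.79 to 1.44) and 2.36-fold (1.95 to 2.88) higher in the library labelled KO. Pccb stood at 0.99 (0.68 to 1.42), a direction that also turned with the scaling, and at 1.58 (1.30 to 1.91). Other nuclei were mostly lymphocyte-like in the library labelled WT, with 2100 nuclei, and mostly ASPC-like and myeloid-like in the library labelled KO, so these ratios have different denominators.

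Acadsb, like Bckdk, was lower in adipocyte-like than in ASPC-like nuclei of the library labelled KO. In the library labelled WT it measured 59.4 CPM in adipocyte-like nuclei and 41.6 CPM (28.2 to 59.0, 31 UMIs) in ASPC-like nuclei, a ratio of 1.43 (0.95 to 2.20). In the library labelled KO it measured 85.2 CPM and 119 CPM (108 to 131, 395 UMIs), a ratio of 0.72 (0.63 to 0.81), so it was lower in adipocyte-like than in ASPC-like nuclei there, while the interval labelled WT includes 1. Endothelial-like nuclei had 77.4 CPM (41.2 to 132, 13 UMIs) and 118 CPM (79.3 to 170, 29 UMIs) of Acadsb, with intervals that include the levels of adipocyte-like nuclei. No other member was lower in adipocyte-like than in ASPC-like nuclei of the library labelled KO with an interval clear of 1 except Bckdk, at 0.65 (0.44 to 0.96).

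Between the libraries, Acadsb was 2.86-fold (1.98 to 4.27) higher in ASPC-like nuclei labelled KO, against 1.43-fold in adipocyte-like nuclei. Beside genes of like intronic length it was 2.55-fold higher in ASPC-like nuclei. The ASPC-like nuclei of the libraries lay in the different clusters named above. The difference of the 2 log2 ratios was -0.997 (-1.595 to -0.40). In ASPC-like nuclei 3 of 10 members were at or above 2 (Bckdhb, Mccc2 and Acadsb), with a background of 25.1%, and none was at or under 0.5, with a background of 8.71%.

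Before any length correction, Bckdhb was higher in the library labelled KO in ASPC-like, myeloid-like and lymphocyte-like nuclei too. It measured 29.5 CPM (18.5 to 44.7, 22 UMIs) and 105 CPM (94.1 to 116, 348 UMIs) in ASPC-like nuclei, a ratio of 3.55 (2.31 to 5.74). In myeloid-like nuclei it measured 18.9 CPM (9.76 to 33.0, 12 UMIs) and 96.7 CPM (85.3 to 109, 259 UMIs), a ratio of 5.12 (2.88 to 10.0). In lymphocyte-like nuclei it measured 15.2 CPM (10.8 to 20.8, 39 UMIs) and 58.8 CPM (31.3 to 101, 13 UMIs), a ratio of 3.87 (1.90 to 7.41). In endothelial-like nuclei, which shared 1 cluster, it measured 35.7 CPM (13.1 to 77.7, 6 UMIs) and 57.1 CPM (31.2 to 95.9, 14 UMIs), a ratio of 1.60 (0.58 to 5.08), and 0.41-fold beside genes of like intronic length, with intervals that include no difference. The log2 ratio in adipocyte-like nuclei exceeded that in ASPC-like nuclei by 0.48 (-0.17 to 1.13), in lymphocyte-like nuclei by 0.35 (-0.57 to 1.28) and in myeloid-like nuclei by -0.05 (-0.90 to 0.81). A difference of the measured ratio from these 3 classes was therefore not detectable at this depth for Bckdhb before the length correction. Beside genes of like intronic length the log2 ratio was 1.12 (0.94 to 1.31) in adipocyte-like and 1.02 (0.19 to 1.99) in myeloid-like nuclei. It was 0.41 (-0.21 to 1.10) in ASPC-like and 0.26 (-0.77 to 1.19) in lymphocyte-like nuclei, intervals that include 0. Intervals for the differences of these corrected ratios were not computed. In lymphocyte-like nuclei Bckdhb fell in the longest bin, unlike in adipocyte-like nuclei, so the medians subtracted are of unlike bins.

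The levels of Bckdhb outside adipocyte-like nuclei were set beside those of adipocyte markers in the same classes. As a share of its level in adipocyte-like nuclei of the same library, Bckdhb stood at 22.7%, 14.5% and 11.7% in ASPC-like, myeloid-like and lymphocyte-like nuclei labelled WT and at 16.3%, 15.0% and 9.13% in those labelled KO. The 12 summed adipocyte markers stood at 20.1%, 15.6% and 15.1% in the same classes labelled WT and at 16.4%, 16.3% and 19.9% in those labelled KO. Mccc2 stood at 15.9% (labelled WT) and 16.3% (labelled KO) in ASPC-like nuclei, at 18.6% and 12.1% in myeloid-like nuclei and at 29.97% and 3.06% in lymphocyte-like nuclei. These shares lay above the markers' share for Bckdhb in ASPC-like nuclei labelled WT and for Mccc2 in myeloid-like and lymphocyte-like nuclei labelled WT, and at or below it in the other classes. The markers' share is not a measure of stray adipocyte RNA, since other classes may make some of these transcripts themselves. The part of stray RNA in the between-library ratios of these classes was not tested. Acadsb, at 70.0% and 140% in ASPC-like nuclei, and Bckdk, at 124% and 154%, were far above the markers' share.

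Other members differed between classes. The log2 ratio of Bcat2 between the libraries was 0.49 in adipocyte-like nuclei and -0.76 in myeloid-like nuclei, where it measured 45.6 CPM (30.6 to 65.6, 29 UMIs) labelled WT and 26.9 CPM (21.0 to 33.8, 72 UMIs) labelled KO. The difference of these log2 ratios was 1.25 (0.53 to 1.98). The myeloid-like value beside genes of like intronic length was -0.51 (-1.15 to 0.17), an interval that includes 0, and the myeloid-like nuclei of the libraries lay in different clusters. Pccb had log2 ratios of 0.77 in adipocyte-like and -0.59 in myeloid-like nuclei, a difference of 1.36 (0.49 to 2.23). Mccc1 was 0.72 (0.03 to 1.41) higher on this scale in adipocyte-like than in ASPC-like nuclei. Mccc2 was 3.29 (0.39 to 6.19) higher in adipocyte-like than in lymphocyte-like nuclei, the latter resting on 1 UMI in the library labelled KO. These are 5 of the 30 gene and class pairs compared before the length correction, Acadsb included, and the intervals of the other 25 include 0. In myeloid-like nuclei Bckdk stood at 29.9 CPM (18.004 to 46.7, 19 UMIs) and 10.5 CPM (6.95 to 15.1, 28 UMIs), a ratio of 0.35 (0.19 to 0.66). This rests on fewer than the 50 counts required for a call, and beside genes of like intronic length the log2 ratio was -0.87 (-1.76 to 0.05).

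The cluster of adipocyte-like nuclei labelled KO split into 2 at a finer resolution, with 569 and 320 nuclei. The summed members measured 1145 CPM (1112 to 1178) in the first and 1185 CPM (1153 to 1217) in the second, so the level did not rest on either. Bckdhb measured 589 CPM (566 to 613) and 693 CPM (669 to 717), and Mccc2 156 CPM (144 to 168) and 141 CPM (130 to 152). Each of these levels was above that of the same gene in the library labelled WT.

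Ucp1, Cidea and Ppargc1a are genes of thermogenic fat. At least 1 of them was detected in 77 adipocyte-like nuclei labelled WT and 277 labelled KO, whose median depth of 4908 and 8634 UMIs was above the 3491 and 7445 UMIs of the rest. The summed members were 1.26-fold (1.09 to 1.47) and 1.08-fold (1.03 to 1.12) higher in them. Without Bckdhb the ratios were 1.20 (0.9995 to 1.43) and 1.03 (0.97 to 1.10), intervals that include 1. The other pathway genes, summed, stood at 1.12 (1.01 to 1.23) labelled WT and 1.02 (0.99 to 1.05) labelled KO. In the same nuclei labelled WT the summed partner complexes stood at 1.40, fatty acid oxidation genes at 1.39 and TCA cycle genes at 1.47, and in those labelled KO at 1.41, 1.16 and 1.15. Among nuclei labelled WT, Dld was 2.06-fold (1.33 to 3.17) and Bckdhb 1.44-fold (1.09 to 1.90) higher, and Bcat2 was at 0.47 (0.19 to 0.98). Among nuclei labelled KO, Dbt was 1.58-fold (1.26 to 1.97) and Bckdhb 1.11-fold (1.05 to 1.17) higher. The intervals of the other members include 1 in each library, and Dld in the library labelled KO stood at 0.97 (0.77 to 1.23).

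The rest of the pathway was described from 24 further genes of branched-chain amino acid metabolism, transport and control. Of the 23 with at least 50 counts in adipocyte-like nuclei, 10 were at or above a ratio of 2 and 1 at or under 0.5, with a median log2 ratio of 0.43, and after the length correction 7 and 0 with a median of 0.54. These shares compare with the backgrounds of 25.9% and 17.6% given above, and 19.4% and 11.7% after correction. The gene that did not reach this minimum was Slc7a5. Of the 20 genes with at least 100 counts, 9 were at or above 2 and 1 at or under 0.5. Oxct1, which activates ketone bodies, measured 29.2 and 199 CPM (ratio 6.80, 5.23 to 9.02, before the length correction). Pcca, the alpha chain that joins Pccb, measured 65.0 and 379 CPM (5.83, 4.89 to 7.02), though it has 351567 intronic bases and stood at 1.46-fold beside genes of like length. Bcat1, the cytosolic transaminase, measured 10.8 and 28.8 CPM (2.68, 1.71 to 4.41) and stood at 1.83-fold after the correction.

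In the other direction, Echs1, an enoyl-CoA hydratase, measured 101 and 44.3 CPM (0.44, 0.37 to 0.52), but stood at 0.73-fold beside genes of like intronic length and at a log2 ratio of -0.89 under TMM scaling, so it was past 2-fold in neither. Slc25a44, the mitochondrial branched-chain amino acid carrier, measured 43.5 and 23.0 CPM (0.53, 0.41 to 0.69), and the transporter Slc43a2 17.9 and 9.84 CPM (0.55, 0.37 to 0.84). Slc3a2, the heavy chain of amino acid transporters, measured 116 and 70.9 CPM (0.61, 0.53 to 0.72). The ratios of Slc25a44, Slc43a2 and Slc3a2 are given before the length correction. Ivd, chosen after its values were seen, is the isovaleryl-CoA dehydrogenase that makes the substrate for the carboxylase of Mccc1 and Mccc2. It measured 65.5 and 146 CPM, a ratio of 2.22 (1.85 to 2.69), and 2.66-fold after the correction.

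**Figure D5:**
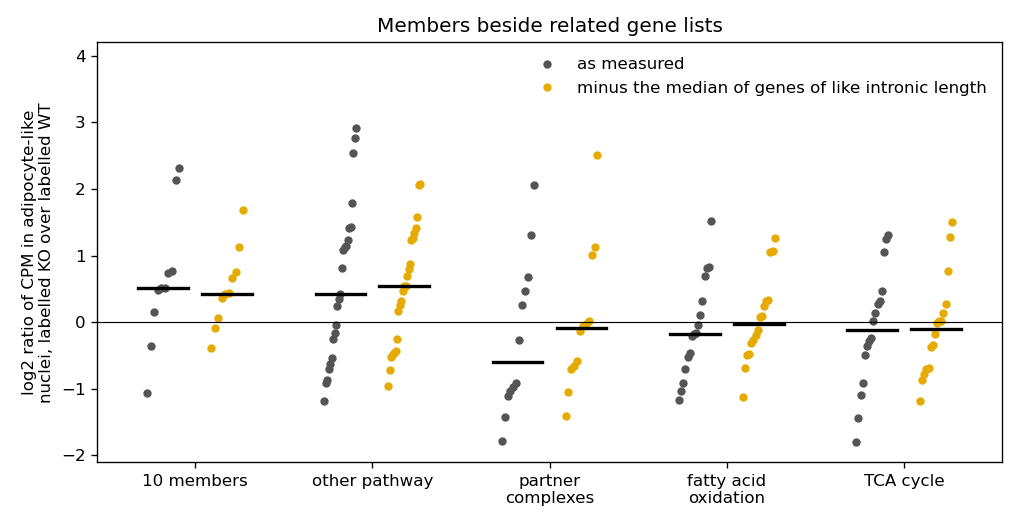
Log2 ratio of CPM in adipocyte-like nuclei, labelled KO over labelled WT, for the 10 genes and 4 related lists, 1 point per gene with at least 50 counts over both libraries. Grey points are the ratios as measured, yellow points are after subtracting the median of genes of like intronic length, and black bars are medians. The medians of the members and of the other pathway genes lie above 0 on both scales, and those of the other lists at or below 0.

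Lists of neighbouring mitochondrial pathways were set beside the members. Over all genes the backgrounds were 25.9% at or above 2 and 17.6% at or under 0.5, and 19.4% and 11.7% after the correction. Genes of the pyruvate and 2-oxoglutarate dehydrogenases, their kinases and phosphatases and the glycine cleavage system share Dld or are regulated like the branched-chain complex. Of the 12 with at least 50 counts, 2 were at or above 2 and 4 at or under 0.5, with a median log2 ratio of -0.59. After the correction these counts were 3 and 2, with a median of -0.09. Fatty acid oxidation genes had 1 of 16 at or above 2 and 2 at or under 0.5, or 3 and 1 after the correction, with medians of -0.17 and -0.02. Genes of the TCA cycle had 3 of 16 at or above 2 and 3 at or under 0.5, or 2 and 1 after the correction, with medians of -0.11 and -0.10. The ratios of the partner complexes thus ran both ways. A pair of these genes, chosen after their values were seen, is given only as an example, before the length correction. Pdhb, a chain of pyruvate dehydrogenase, stood at 0.29 (0.25 to 0.34), while its kinase Pdk2 stood at 4.18 (2.67 to 6.92).

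The genes whose level followed the summed members most closely over 14 points, each a class in a library with at least 30 nuclei, were Hacd2 (Pearson's r 0.88), Fam214a (0.85), Mmd (0.84), Acaca (0.83) and Lep (0.83), among 2314 genes compared on log2(CPM + 10). With Bckdhb left out of the sum, Fam214a (0.81), Mknk2 (0.80), Gadd45g (0.80), Lipe (0.77) and Nrip1 (0.77) came first. The points share libraries and depth, and Fam214a alone was on both lists.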

How the data were processed

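Nuclei of pooled iWAT were sequenced with droplet 3′ chemistry, 1 library per genotype from 3 mice. Cell Ranger 6.1.1 gave the deposited tables of whole UMI counts, per the file headers, and the submitters' processing notes name mm10 and Seurat 4. Whether introns were counted, strand was used or free RNA was removed is not given in the sources used here. Each table held 5000 barcodes, with 9376351 (labelled WT) and 19655049 (labelled KO) UMIs in all.

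Barcodes with at least 500 genes and at most 5% mitochondrial counts were kept. Scrublet (scanpy 1.11.5) marked 92 doublets labelled KO, which were removed. It marked 0 labelled WT, where the 4% of barcodes with the highest scores, 146, were removed instead. Merged nuclei were clustered in Seurat 5.3.0 (R 4.3.3) on 2000 variable genes, 20 principal components and a resolution of 0.5, leaving out the genes described here. Clusters were called by type only from marker lists, as X-like, and rebuilt names may differ from those of the study. A cluster led by Ccl21a and Ccl19 was kept unnamed by a rule set after it was seen, and unnamed nuclei numbered 251 and 36.

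Counts were summed per class and library and given as CPM. Intervals are exact Poisson (levels), Clopper-Pearson (shares) and conditional binomial (ratios) at 95%, computed in scipy 1.17.1. With 1 library per genotype there was no test, and a ratio of at least 2 or at most 0.5 was called among genes with at least 50 counts. Intronic lengths came from a GENCODE annotation of an older build matched by gene ID, and the median log2 ratio in 20 bins of length was subtracted for the correction. Starts and coordinates are from RefSeq on GRCm38.p6. TMM factors came from edgeR 4.0.16. The ratio code was tested on simulated data.

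The 10 genes and the other lists were chosen with earlier results of these data known. All 10 were named. Of the other pathway genes, up to 4 in each direction with the largest ratios and at least 100 counts were given with values, and the 5 genes most like the summed members by Pearson's r. A gene that this rule would name is not reported here. The alternatives tried were other scalings, filters, doublet handling, resolutions, separate clustering and UMI draws.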

Additional observations from a re-analysis of the deposited data

Results flagged for a closer look

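Bcat2 differed between the libraries in opposite directions in 2 classes. Its ratio, labelled KO over labelled WT, was 0.589 (0.378 to 0.940) in myeloid-like nuclei and 1.40 (1.08 to 1.84) in adipocyte-like nuclei, and the interval of the difference, which covers counting error only, excludes 0. The myeloid-like nuclei of the libraries lay in different clusters, and beside genes of like intronic length the myeloid-like log2 ratio was -0.51 (-1.15 to 0.17), which includes 0.

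The barcodes left out by the filters or removed as doublets also held UMIs of the 10 genes. There were 668 such UMIs in 1497 barcodes labelled WT, or 242 CPM (224 to 261), and 1882 in 2148 barcodes labelled KO, or 466 CPM (445 to 488). These levels were below those of adipocyte-like nuclei in the same library.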

How the results depend on the processing

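No paired analysis was possible because each genotype had 1 library, and leaving out a replicate was not possible for the same reason. Signs changed for 3 values whose intervals include 0: Mccc1 between the libraries in adipocyte-like nuclei, and Bckdk and Pccb in adipocyte-like over other nuclei labelled WT. The share of genes past 2-fold that were higher in the library labelled KO went from 59.5% to 45.4% with totals without mitochondrial genes and Malat1. Under TMM scaling the log2 ratio of the summed genes in adipocyte-like nuclei, labelled KO over labelled WT, was 1.62 in place of 1.33, the median over the genes 0.81 in place of 0.52, the log2 ratio of adipocyte-like over other nuclei 1.36 (labelled WT) and 2.12 (labelled KO) in place of 0.93 and 1.70, and the number of genes at or under a ratio of 0.5 was 1105 in place of 2002. With totals without mitochondrial genes and Malat1 the first 4 values were 1.07, 0.26, 1.22 and 1.87. After the intronic length correction the summed log2 ratio was 0.86 and 1239 genes were at or under 0.5. With a minimum of 10 counts 3351 genes were at or under 0.5, and with a minimum of 1 count 5314, with 7466 at or above 2 in place of 2939. The difference in the share of adipocyte-like nuclei with a UMI of any of the genes was 21.5 points at 500 UMIs and 22.9 without a draw, in place of 29.5. Chosen after seeing the data, leaving out Bckdhb gave a summed log2 ratio of 0.64, a share difference of 12.7 points and adipocyte-like over other log2 ratios of 0.57 and 0.99, and weighting the other classes equally gave 1.79 labelled KO. The causes were not tested. Of the other values for single genes, 197 moved by less than their counting interval and 23 by more. Depth limits most members outside adipocyte-like nuclei, where levels rest on few UMIs.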
